A study of Mus musculus with 6 samples.

Results

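The neutrophil genes are 8 rows of the deposited expression table, S100a8, S100a9, Retnlg, Cxcr2, Csf3r, Ngp, Camp and Il1r2, out of 18174 rows in all. They were chosen by gene name, and all 8 were found in the table. The table holds 6 lung libraries from wild-type male C57BL/6J mice, 3 from animals kept at room temperature and 3 from animals held at 4 °C for 6 h. Both groups were total RNA of lung tissue, and the labels give neither ages nor the region of lung taken. The labels call the libraries biological replicates and do not say that each came from its own animal, so the p-values measure only the spread between these libraries. In bulk tissue, a change in the number of cells of a type and a change in RNA per cell cannot be told apart.

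Neutrophils are short-lived granulocytes made in the bone marrow, and the lung capillaries hold a large pool of them against the vessel wall. They leave the marrow under the cytokine G-CSF and follow ELR-type CXC chemokines into tissue. Their granules are filled in sequence during maturation, so that transcripts of primary and specific granule proteins belong mainly to precursors, whereas receptors and S100 proteins are prominent in mature cells. S100A8 and S100A9 are calcium-binding proteins that pair as calprotectin and make up a large part of the neutrophil cytosol.

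The promoters of both S100 genes and of both granule protein genes are shown. Both genes of each pair were higher in every cold library, as were all 8 members. The windows are RefSeq sequence of GRCm38.p6, 5′ to 3′ on the gene's own strand, with 250 bases before the annotated start and 30 bases from it. Capitals mark matches, on either strand, to TATAAA, to GAGGAA (an ETS-type core like that bound by the myeloid factor PU.1) or to TTGCNNAA (a C/EBP-type element).
S100a8: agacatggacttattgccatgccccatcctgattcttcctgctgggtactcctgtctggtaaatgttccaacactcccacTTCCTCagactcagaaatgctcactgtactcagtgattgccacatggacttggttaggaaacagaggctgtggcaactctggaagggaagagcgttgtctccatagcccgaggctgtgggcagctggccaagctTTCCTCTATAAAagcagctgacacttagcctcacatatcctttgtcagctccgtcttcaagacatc
S100a9: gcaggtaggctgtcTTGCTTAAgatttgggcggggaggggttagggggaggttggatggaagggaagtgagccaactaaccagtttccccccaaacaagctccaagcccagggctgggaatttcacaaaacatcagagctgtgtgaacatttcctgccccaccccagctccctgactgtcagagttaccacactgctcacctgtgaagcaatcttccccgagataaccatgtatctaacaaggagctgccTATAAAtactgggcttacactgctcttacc
Ngp: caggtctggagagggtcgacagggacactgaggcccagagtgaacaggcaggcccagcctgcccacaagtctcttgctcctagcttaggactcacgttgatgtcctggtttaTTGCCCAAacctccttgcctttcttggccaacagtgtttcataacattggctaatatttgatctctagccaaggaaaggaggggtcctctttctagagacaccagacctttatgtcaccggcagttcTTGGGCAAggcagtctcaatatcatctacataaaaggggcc
Camp: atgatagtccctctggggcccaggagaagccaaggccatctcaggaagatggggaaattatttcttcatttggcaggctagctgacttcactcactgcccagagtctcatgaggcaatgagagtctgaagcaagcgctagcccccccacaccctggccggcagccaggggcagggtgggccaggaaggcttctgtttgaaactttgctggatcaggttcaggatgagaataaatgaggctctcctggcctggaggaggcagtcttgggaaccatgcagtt
These windows lie at chr3:90668821-90669100 on the plus strand, chr3:90695692-90695971 on the minus strand, chr9:110419558-110419837 on the plus strand and chr9:109849427-109849706 on the minus strand. TATAAA was present in 2 of the 8 members, S100a8 and S100a9, and in 13.1% of all 32851 windows of this length. Its match began 30 bases before the annotated start in S100a8 but at the annotated start itself in S100a9. GAGGAA was found in 3 members, S100a8, Cxcr2 and Csf3r, and in 25.98% of all windows. TTGCNNAA was found in 3 members, S100a9, Retnlg and Ngp, and in 10.4% of all windows. AGAACA, a glucocorticoid receptor half-site, was found in Cxcr2 among the members and in 17.9% of all windows. The Camp window, in which no letters are capitals, and that of Il1r2 held no match to these 4 motifs. The Il1r2 window, chr1:40085843-40086122, lies inside the gene span used for its level, which starts at 40074079. The matches describe letters only, and whether any factor binds them was not tested.

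The libraries held 32.7 to 48.7 M reads (M, mega), recovered from the step size of the deposited values. Levels are scaled RPKM, that is, reads per kilobase of gene span and per M reads, divided by a scaling factor per library. Of 15237 genes tested with limma, 35.5% were called higher and 35.0% lower in the cold libraries at a Benjamini-Hochberg adjusted p under 0.05, so that 70.5% of all genes were called. With the deposited scaling in place of this one, 7034 genes were called higher and 3766 lower, against 5409 and 5336, and the median log2 change of all genes shifted from 0.00 to 0.29. In 38.3% of the genes tested, all 3 cold libraries lay above all 3 room temperature libraries. The tissue markers also differed between the groups. All 12 markers of airway epithelium were called lower, with summed levels of 17966 to 23479 at room temperature and 4655 to 5450 in the cold. All 12 markers of endothelium were called higher, with summed levels of 6.30 to 72.0 at room temperature and 312.9 to 342.5 in the cold. A difference in the tissue sampled and the effect of cold cannot be told apart here, which bears on every fold difference below, and the part of these markers in the results for the neutrophil genes was not tested. Among the room temperature libraries, replicate 3 stood apart with the highest level of 12 of the 12 endothelial markers. Among the cold libraries, replicate 2 stood apart for the neutrophil genes.

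All 8 neutrophil genes were higher in the cold libraries, against 35.5% of all genes called higher. All 8 had their groups without overlap, against 38.3% of all genes. Of the 8, 3 had the equivalent of 10 reads in all 3 room temperature libraries, and the other 5 entered the test through their cold libraries, so the count of 8 carries no support of its own. The increase of the mean scaled RPKM was 4.04-fold for Retnlg and between 27.3-fold and 50.4-fold for the other members. Some of these values rested on 1 library. Without room temperature replicate 3 the increase was 157-fold for Cxcr2 and 89.8-fold for Csf3r. For Il1r2 it was 92.3-fold without room temperature replicate 2, 28.7-fold without room temperature replicate 1 and 27.3-fold without cold replicate 2, against 43.0-fold with all libraries. For Retnlg it was 2.65-fold without cold replicate 2. All 8 stayed called in each of 15 alternative ways of processing the data.

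**Figure D1:**
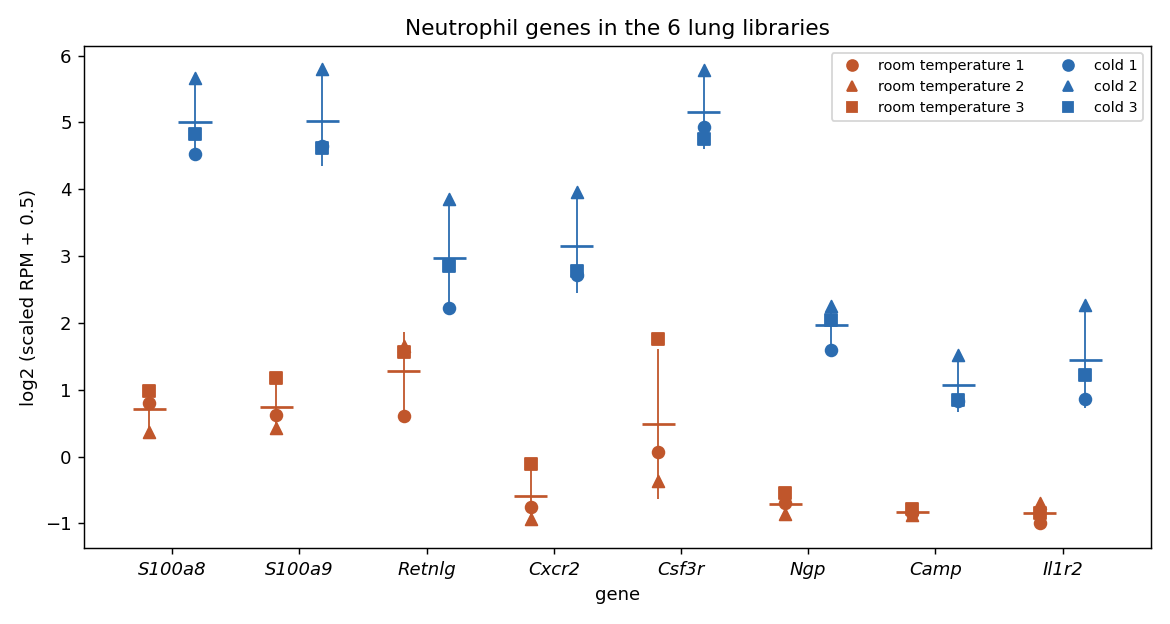
Levels of the 8 neutrophil genes in each library, on a log2 scale of scaled RPM plus 0.5 (vertical axis). Orange symbols are room temperature and blue symbols cold, circles, triangles and squares are replicates 1, 2 and 3, horizontal lines are group means and vertical lines SD (n = 3). Blue symbols lie above orange ones in every gene, and cold replicate 2, the blue triangle, is the highest cold library in all 8.

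The calprotectin genes had the highest read numbers of the members together with the receptor gene Csf3r. S100a8 (ENSMUSG00000056054, chromosome 3, 90668978 to 90670035) stood at 1.17, 0.748 and 1.38 scaled RPKM in room temperature replicates 1, 2 and 3, and at 21.4, 47.3 and 26.3 in cold replicates 1, 2 and 3. The lowest cold library was far above the highest room temperature library. The mean went from 1.10 ± 0.323 to 31.7 ± 13.8 (SD, n = 3), a 28.8-fold difference, with a log2 change of 4.29 ± 0.30 (SE) and an adjusted p of 5.6e-05 in limma. S100a9 (ENSMUSG00000056071, chromosome 3, 90692632 to 90695721), whose product is the partner of S100A8 in calprotectin, stood at 0.335, 0.272 and 0.566 at room temperature and at 7.95, 17.9 and 7.79 in the cold. Here too the groups were wide apart, and cold replicate 2 stood above the other cold libraries. The mean went from 0.391 ± 0.155 to 11.2 ± 5.79 (SD, n = 3), a 28.7-fold difference, with a log2 change of 4.29 ± 0.35 (SE) and an adjusted p of 8.36e-05 in limma. The genes lie 22.6 kb apart, and the ratio of their reads per M reads, S100a8 over S100a9, was 1.20, 0.942 and 0.836 at room temperature and 0.921, 0.905 and 1.16 in the cold. The pair thus held about equal numbers of reads in every library, whichever group it came from.

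The receptor genes were low at room temperature and higher in every cold library. Cxcr2 (ENSMUSG00000026180, chromosome 1, 74153989 to 74161246) encodes the receptor for ELR-type CXC chemokines such as Cxcl1 and Cxcl2. It stood at 0.0126, 0.0035 and 0.0589 scaled RPKM at room temperature, which were 3.17, 1.06 and 16.4 recovered reads, and at 0.840, 2.07 and 0.874 in the cold. Room temperature replicates 1 and 2 were near 0, and most of the room temperature reads came from replicate 3, yet no library of that group reached the cold range. The ratio of its summed reads per depth was 49.6 (95% counting interval 32.3 to 80.4), and the limma log2 change was 3.75 ± 0.38 (SE) with an adjusted p of 0.000143. Csf3r (ENSMUSG00000028859, chromosome 4, 126024550 to 126044440) encodes the receptor for G-CSF. It stood at 0.0275, 0.0140 and 0.144 at room temperature and at 1.51, 2.74 and 1.33 in the cold. Room temperature replicate 3 was again above its group, with 110 of the reads against 19.0 and 11.6, yet remained far below every cold library. The mean went from 0.0619 ± 0.0716 to 1.86 ± 0.769 (SD, n = 3), with a log2 change of 4.67 ± 0.58 (SE) and an adjusted p of 0.000554 in limma. Il1r2 (ENSMUSG00000026073, chromosome 1, 40074079 to 40125231) encodes a decoy receptor that binds interleukin-1 without signalling. It stood at 0, 0.00233 and 0.00105 at room temperature, about 7 reads in all, and at 0.0258, 0.0841 and 0.0358 in the cold, which were 48.6, 157 and 71.7 reads. The groups did not overlap, but the room temperature values sit at the rounding of the table. The ratio of summed reads per depth was 40.5 (95% counting interval 19.4 to 102), and the log2 change was 2.30 ± 0.35 (SE) with an adjusted p of 0.000767 in limma. The span of Il1r2 overlaps an annotated antisense gene, Gm16894, and a further locus, Gm37347, so its reads are uncertain, whereas the other 7 members overlap no annotated gene.

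The specific granule genes had the lowest mean levels per span in the cold after Il1r2. Ngp (ENSMUSG00000032484, chromosome 9, 110419747 to 110423012), encoding neutrophilic granule protein of the cystatin fold, stood at 0.0355, 0.0152 and 0.0558 scaled RPKM at room temperature and at 0.772, 1.30 and 1.11 in the cold. Its cold libraries lay closest together of all members, and none overlapped the room temperature range. The mean went from 0.0355 ± 0.0203 to 1.06 ± 0.269 (SD, n = 3), with a log2 change of 2.67 ± 0.21 (SE) and an adjusted p of 6.27e-05 in limma. Camp (ENSMUSG00000038357, chromosome 9, 109847379 to 109849617), encoding the antimicrobial cathelicidin, stood at 0.0252, 0.0210 and 0.0347 at room temperature and at 0.570, 1.06 and 0.581 in the cold. Each room temperature library held 3 reads of Camp or fewer, and each cold library held many times more. The mean went from 0.0270 ± 0.00704 to 0.737 ± 0.281 (SD, n = 3), with a log2 change of 1.90 ± 0.22 (SE) and an adjusted p of 0.000223 in limma. Counted as summed reads per depth, the ratio was 30.7 for Ngp (95% counting interval 17.7 to 58.1) and 26.9 for Camp (12.8 to 68.0). These intervals cover counting error only. Both genes are on chromosome 9, 570.1 kb apart.

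Retnlg, encoding a resistin-like secreted protein of mouse marrow and neutrophils, had the smallest fold difference of the members. Retnlg (ENSMUSG00000022651, chromosome 16, 48872621 to 48874496) stood at 0.548, 1.42 and 1.31 scaled RPKM at room temperature and at 2.22, 7.45 and 3.56 in the cold. The groups did not overlap, but the lowest cold library was near the highest room temperature library. The mean went from 1.09 ± 0.475 to 4.41 ± 2.72 (SD, n = 3), a 4.04-fold difference, with a log2 change of 1.70 ± 0.46 (SE) and an adjusted p of 0.0133 in limma. Over the alternatives Retnlg had the highest adjusted p of the members, 0.0441 without room temperature replicate 1 and its log2 change was 1.25 without cold replicate 2. The ratio of Retnlg to S100a8 per span was 0.468, 1.90 and 0.949 at room temperature and 0.104, 0.158 and 0.135 in the cold. Every cold library thus had less Retnlg for its S100a8 than every room temperature library. Its close paralogue Retnla, a resistin-like gene of alternatively activated macrophages and airway epithelium, moved the other way, from 48.3, 167 and 88.7 at room temperature to 10.05, 14.5 and 9.74 in the cold (log2 change -2.96 ± 0.44 SE, limma adjusted p 0.00116). Room temperature replicate 2 was highest in both Retnla and Retnlg, and whether reads of Retnla were placed on Retnlg was not tested.

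**Figure D2:**
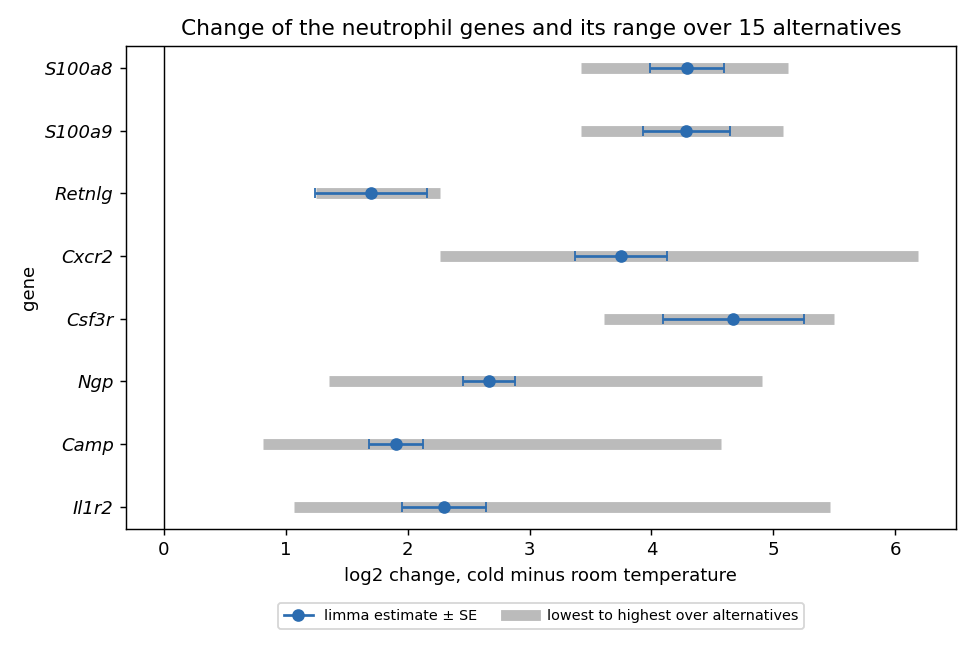
Log2 change of each neutrophil gene, cold minus room temperature (horizontal axis), as the limma estimate with its SE in blue and as the lowest to highest value over 15 alternatives in grey. All grey bars lie above 0, from 0.81 at the low end for Camp to 6.19 at the high end for Cxcr2.

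The size of the log2 change depended on the value added before taking logs where room temperature reads were few. Over the 15 alternatives it ran from 0.81 to 4.57 for Camp, from 1.36 to 4.91 for Ngp, from 1.07 to 5.46 for Il1r2 and from 2.27 to 6.19 for Cxcr2. In the authors' deposited table the log2 fold change was 2.33 for Retnlg (deposited q 0.00263), 5.86 for Cxcr2 and between 4.79 for Il1r2 and 5.16 for S100a8 among the rest. These values equal the log2 ratio of the deposited, unscaled group means after 0.001 is added to each, which lowers the value of Il1r2 most.

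Within the cold libraries the order of levels per gene span was S100a8, S100a9, Retnlg, Csf3r, Cxcr2, Ngp, Camp and Il1r2. S100a8 and S100a9 did not overlap over the cold libraries, nor did S100a9 and Retnlg, nor Camp and Il1r2. The ranges of the neighbours from Retnlg to Camp overlapped over the libraries. Within each of the 3 cold libraries, however, Retnlg was above Csf3r, Csf3r above Cxcr2, and Ngp above Camp, whereas Cxcr2 was above Ngp in 2 of the 3. By the means at room temperature Retnlg came next after S100a8, at 1.09 against 1.10, and Cxcr2 fell behind Ngp and Camp. Single libraries reversed these orders. In room temperature replicate 2 Retnlg (1.42) was above S100a8 (0.748). In room temperature replicate 3 Cxcr2 (0.0589) was above Ngp (0.0558) and Camp (0.0347). Measured per exon length, a choice made after seeing the data, S100a9 led in the cold at 66.4 and S100a8 followed at 48.3, with Retnlg at 13.96, Csf3r at 10.3, Cxcr2 at 3.00, Ngp at 2.84, Camp at 2.18 and Il1r2 at 1.30. The order of S100a8 and S100a9 therefore turned with the length used. Per exon length their cold ranges overlapped, but S100a9 was above S100a8 within each of the 3 cold libraries. S100a9 spans 3090 bases, of which 522 are exonic.

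The spread among the cold libraries was large and shared. Cold replicate 2 was the highest cold library in all 8 members, against 30.1% of all genes tested. Its level over the mean of cold replicates 1 and 3 was 1.98 for S100a8, 2.27 for S100a9, 2.58 for Retnlg, 2.41 for Cxcr2, 1.93 for Csf3r, 1.39 for Ngp, 1.84 for Camp and 2.73 for Il1r2. The ratio was thus highest for Il1r2, Retnlg and Cxcr2 and lowest for Ngp, while the receptor gene Csf3r (1.93) lay near the granule gene Camp (1.84). The SD of the log2 values over the cold libraries ran from 0.33 for Ngp to 0.82 for Retnlg, where the median over all genes was 0.14. Only 0.190% of all genes had a larger cold SD than Retnlg, and 8.20% had a larger one than Ngp. At room temperature, replicate 3 was highest in 6 of the 8 members, against 39.3% of all genes, and replicate 2 was highest in Retnlg and Il1r2. With room temperature replicate 3 and cold replicate 2 both left out, a choice made after seeing the data, all 8 members were still called higher.

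**Figure D3:**
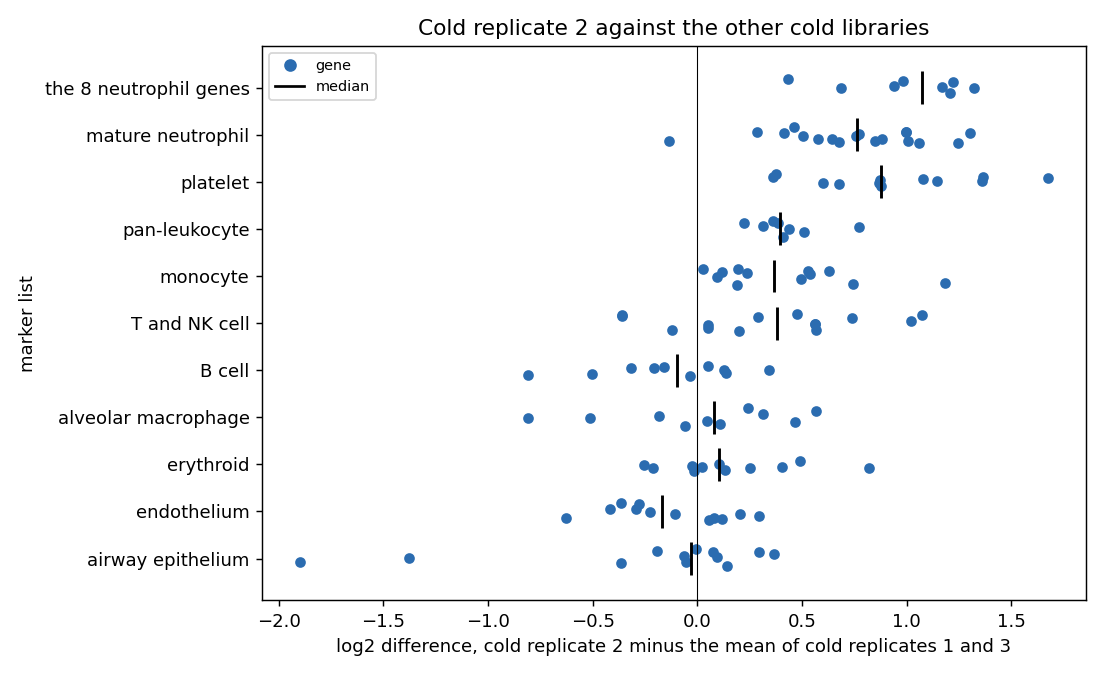
Log2 difference between cold replicate 2 and the mean of cold replicates 1 and 3 (horizontal axis) for each gene of the neutrophil and cell marker lists (rows), with points for genes and black lines for list medians. The neutrophil genes have a median of 1.07, platelet markers 0.88 and mature neutrophil genes 0.76, whereas endothelial markers have -0.17 and airway markers -0.03.

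Marker lists of other blood cells moved with that library to differing extents. Platelet markers were highest in cold replicate 2 in 12 of 12 genes, with a median log2 difference of 0.88 from the other cold libraries, but between the groups 1 of 12 rose, 1 fell and 10 were not called. Their summed level was 22.0 to 69.6 at room temperature and 27.5 to 72.2 in the cold, so the groups overlapped. Clec1b, a platelet lectin receptor, was the gene that rose (log2 change 1.10 ± 0.39 SE, limma adjusted p 0.0393), a call lost in 6 alternatives, among them the fit with a replicate block (adjusted p 0.0925), and Gp1bb, a subunit of the von Willebrand factor receptor, fell by 1.03. Without cold replicate 2, 4 platelet markers fell and Clec1b was not called (adjusted p 0.118), and 3 fell without room temperature replicate 2. The 8 pan-leukocyte genes were all highest in cold replicate 2, with a median of 0.40. That library was highest in 9 of 14 T and NK cell genes (median 0.38) and in 8 of 12 monocyte genes (0.37). By contrast, B cell markers had a median of -0.10, alveolar macrophage markers 0.08 and erythroid markers 0.10.

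Lists of other cell types were read against the 35.5% of all genes called higher. For 11 tested T and NK cell genes and 5 B cell genes, at least 1 room temperature library lacked the equivalent of 10 reads. The same held for 3 monocyte, 3 alveolar macrophage, 3 erythroid and 2 eosinophil, basophil and mast cell genes, all of them called higher. Cd28, Nkg7, Ms4a1, Fcer2a, Slc4a1, Siglecf and Cpa3, named below, are among the genes of these lists with so few reads. The counts of all these lists are descriptions only. Of 8 pan-leukocyte genes 6 rose, among them Cd53, a leukocyte tetraspanin (log2 change 2.17), and Rac2, a small GTPase of blood cells (1.31), and the summed level went from 4.14 to 10.6 at room temperature to 14.5 to 20.7 in the cold. Of 12 monocyte genes 11 rose, including the CSF-1 receptor gene Csf1r (1.18) and Ace (4.10), which capillary endothelium also expresses. Of 14 T and NK cell genes 13 rose, including Cd28 (1.99) and Nkg7 (1.87), and of 10 B cell genes 8 rose, including Ms4a1 (1.91) and Fcer2a (1.94). Of 11 erythroid genes 9 rose and 1 fell, with summed levels of 41.9 to 231 at room temperature and 709.9 to 899.7 in the cold, and among those that rose was Slc4a1, the red cell anion exchanger (2.40). The erythroid gene that fell, Bpgm, named after its values were seen, lost its call under the deposited scaling and without room temperature replicate 1 or 2 or cold replicate 1 or 3. Of 10 alveolar macrophage genes 7 rose, including Krt79 (1.94), and 3 fell, including Plet1 (-2.19). Of 10 eosinophil, basophil and mast cell genes 4 could be tested and rose. They included Kit (4.04) and the eosinophil lectin Siglecf (1.94), which is in the alveolar macrophage list as well. The other tested genes, named after their values were seen, were Gata2 (3.90) and Cpa3, which rose by only 0.69. Mcpt8, a defining basophil protease named after its values were seen, had 0 reads in all room temperature libraries and about 1 read or 0 in each cold library. The eosinophil genes Epx, Prg2 and Ccr3, also named after their values were seen, had too few reads for the test, and their groups overlapped. The endothelial genes Vwf (2.27) and Calcrl (5.37) rose, and the ciliary dynein genes Dnah5 (-2.61) and Dnah9 (-2.57) fell. The medians of these lists lay between -2.59 for airway epithelium and 3.97 for endothelium, against 3.21 for the 8 neutrophil genes and 0.00 for all genes tested. The part of these cell types in the result for the neutrophil genes was not tested.

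Further genes of mature neutrophils were examined as a list. Of 22 listed genes 20 were in the table and 18 were tested, of which 15 rose, 2 fell and 1 was not called, with a median log2 change of 1.41. Over all genes 35.5% were called higher, and 12 of the 18 lacked the equivalent of 10 reads in at least 1 room temperature library, so they entered the test through the cold libraries and all 12 are among those that rose. The count of 15 is thus a description only. Cold replicate 2 was highest in 17 of the 18. Mxd1, a MYC antagonist of terminal differentiation, went from 0.548 ± 0.0246 to 1.69 ± 0.340 scaled RPKM (log2 change 1.57), Fpr2, a formyl peptide receptor, from 0.0588 ± 0.0442 to 0.637 ± 0.133 (2.38) and Ifitm6 from 0.144 ± 0.0297 to 1.84 ± 0.949 (2.40). The genes that fell were Hcar2, the niacin receptor, from 12.5 ± 3.42 to 1.93 ± 0.124 (-2.50), and Hdc, the enzyme that makes histamine, from 5.17 ± 1.12 to 2.02 ± 0.467 (-1.35). Their room temperature means lay above that of S100a8 (1.10), and which cells their reads came from was not tested. Ly6g, the surface antigen that defines mouse neutrophils, was named after its values were seen. It was at 0 in all room temperature libraries and at 0.0391, 0.327 and 0.0949 in cold replicates 1, 2 and 3, too few reads for the test. Against a floor of 3 reads per library its cold mean was at least 7.58-fold higher, or at least 3.30-fold without cold replicate 2, and it too was highest in cold replicate 2.

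Genes of the granule classes were called in both directions, in shares near those of all genes for the specific and gelatinase granules (35.5% higher and 35.0% lower over all genes). In the primary and gelatinase granule lists 1 gene each, Mpo and Mmp8, entered the test through the cold libraries and was called higher. The counts of the granule lists are thus descriptions only. In the primary granule list 4 of 7 genes were tested and 2 rose, and without room temperature replicate 3 or cold replicate 3 a further gene was called lower. With no filter on low reads 4 were called higher. Those that rose were Ctsc, the protease that activates granule serine proteases (log2 change 1.55 ± 0.22 SE), and Mpo, myeloperoxidase, which was at 0 in all room temperature libraries, had 17.03, 15.95 and 20.13 reads in cold replicates 1, 2 and 3 and was at least 5.97-fold higher against a floor of 3 reads per library. In the specific granule list 3 of 7 tested genes rose and 3 fell. Chil3, a chitinase-like lectin also made by alveolar macrophages, rose from 0.290 ± 0.363 to 2.98 ± 1.17 (3.81), as did Cybb, a subunit of the phagocyte oxidase (1.47). Ltf, lactoferrin, fell from 29.9 ± 13.3 to 0.634 ± 0.205 (-5.43), and so did the oxidase subunit gene Cyba (-0.81) and the adhesion gene Ceacam1 (-0.64), the last with an adjusted p of 0.0961 under the deposited scaling. In the gelatinase granule list 3 of 6 genes rose and 3 fell. Mmp8, the neutrophil collagenase, stood at 0, 0.00700 and 0.0389 at room temperature and at 0.351, 1.09 and 0.704 in the cold (3.47). Cd177, a neutrophil surface glycoprotein, fell from 3.01 ± 0.970 to 0.201 ± 0.0426 (-3.67), and Adam8, a metalloprotease (-2.81), and Pglyrp1, a peptidoglycan recognition protein (-3.43), fell with it. The room temperature means of Ltf, Cd177, Pglyrp1 (12.0) and Adam8 (11.8) lay above that of the member S100a8 (1.10). Which cells the reads of these genes came from was not tested.

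**Figure D4:**
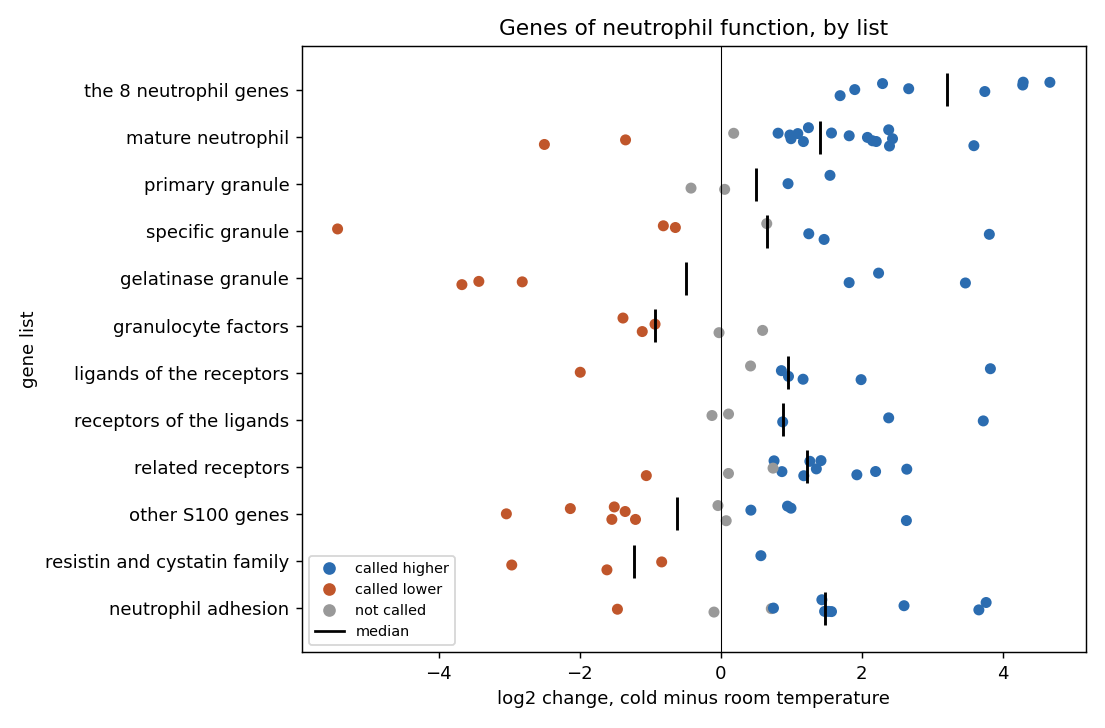
Log2 change, cold minus room temperature (horizontal axis), of each tested gene in the lists of neutrophil function (rows). Blue points were called higher, orange points lower and grey points neither, and black lines are list medians, from 3.21 for the 8 neutrophil genes to -1.22 for the resistin and cystatin family.

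Of 5 tested transcription factors of granulocyte development, 3 fell and 2 were not called at the limma threshold. Over all genes 35.0% were called lower and 35.5% higher, so these counts are descriptions only. Those that fell were Runx1 (log2 change -1.39), Cebpa (-1.11) and Cebpb (-0.93), the last with an adjusted p of 0.0589 under the deposited scaling. Spi1, the gene of PU.1, named after its values were seen, had a log2 change of 0.60 and an adjusted p of 0.0701, and it was called higher under the deposited scaling, without room temperature replicate 3 and without cold replicate 3. Cebpa and Cebpb are expressed in lung epithelium as well.

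Among ligands for the members' receptors, 5 of 7 tested genes rose and 1 fell, and 3 of those that rose entered the test through the cold libraries. Over all genes 35.5% were called higher and 35.0% lower, and the counts are descriptions only. Il1b, a ligand that the decoy receptor Il1r2 captures, stood at 0.0481, 0.0910 and 0.0716 scaled RPKM at room temperature and at 1.57, 3.54 and 1.40 in the cold. Its groups were wide apart and cold replicate 2 was again the highest. The log2 change of Il1b was 3.83 ± 0.34 (SE) with an adjusted p of 8.89e-05 in limma. Il1rn, the interleukin-1 receptor antagonist, rose from 0.0412 ± 0.0252 to 0.262 ± 0.0785 (1.99), and Cxcl1, a ligand of Cxcr2, from 0.0650 ± 0.0286 to 0.481 ± 0.0919 (1.17). Cxcl5, a further ligand of Cxcr2 that lung epithelium makes, fell from 1.33 ± 0.558 to 0.153 ± 0.0597 (-1.99). Csf3, the gene of G-CSF itself, named after its values were seen, was too low for the test, at 0.110, 0.0712 and 0.0326 at room temperature and 0.0462, 0.0689 and 0.107 in the cold. Its groups overlapped.

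Of 5 receptors reported for calprotectin or cathelicidin, 3 rose, where 35.5% of all genes were called higher and 35.0% lower. In this list and in those of related receptors and adhesion genes, 1 gene each entered the test through the cold libraries. The counts of these lists are thus descriptions only. Besides Fpr2 they were P2rx7, an ATP-gated channel (log2 change 0.88), and Ager, the receptor RAGE that alveolar type 1 cells express at high level, which went from 26.9 ± 34.3 to 203 ± 43.9 scaled RPKM (3.73). Among 12 tested chemokine, interleukin-1 and colony-stimulating factor receptors related to the members, 9 rose and 1 fell. They included Ackr3 (1.93), Csf2ra (1.36), Csf1r (1.18) and Il1r1, the signalling interleukin-1 receptor (1.27), whereas Il1rl2, the interleukin-36 receptor, fell by 1.05. In the list of adhesion genes used by neutrophils and vessel walls 8 of 11 rose, among them the ICAM genes Icam2 (3.66) and Icam1 (2.60) and the endothelial selectin Sele (1.48), and Jam3, a junction gene, fell by 1.46. With room temperature replicate 3 and cold replicate 2 both left out, 2 adhesion genes fell. Icam2 and Sele are endothelial genes, and endothelial markers moved in the same direction. Sele had 1.87, 3.22 and 4.19 reads in room temperature replicates 1, 2 and 3 and entered the test through the cold libraries.

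Of 12 other S100 genes tested, 4 rose, 6 fell and 2 were not called, with a median log2 change of -0.62, where 35.5% of all genes were called higher and 35.0% lower. S100a11 fell from 78.6 ± 14.1 to 17.9 ± 3.46 scaled RPKM (-2.13), S100b from 1.74 ± 0.670 to 0.143 ± 0.0229 (-3.04) and S100a1 from 28.1 ± 8.48 to 9.34 ± 1.17 (-1.54). S100g (2.64), S100a10 (1.00), S100a7a (0.95) and S100a16 (0.43) rose, all by less than S100a8 and S100a9. In the resistin and cystatin families related to Retnlg and Ngp, 3 of 4 tested genes fell, namely Retnla, Retn (-1.61) and Cstb (-0.84). Cst3, a secreted cystatin, rose by 0.57, with an adjusted p of 0.0600 to 0.0738 when room temperature replicate 1, cold replicate 1 or cold replicate 3 was left out.

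The 8 non-member genes whose profile over the 6 libraries was most like the mean profile of the members were Slfn1, Cd300lf, Pydc4, Errfi1, Trim30b, Hkdc1, Gdnf and Mmp8. Their root mean square distance from it on the log2 scale was 0.199 for Slfn1 to 0.263 for Mmp8. The members' own distances ran from 0.299 for Cxcr2 to 0.880 for Csf3r, so no member lay as near to the mean profile as these genes. Slfn1 went from 0.0488 ± 0.0255 to 0.983 ± 0.562 scaled RPKM, and its ratio of cold replicate 2 to the mean of the other cold libraries was 2.48. Cd300lf went from 0.0230 ± 0.0172 to 0.520 ± 0.253 with a ratio of 2.11. The ratio was 2.41 in Trim30b and 2.06 in Mmp8, but 1.48 in Pydc4, 1.59 in Errfi1, 1.44 in Hkdc1 and 1.57 in Gdnf. All were chosen by likeness to a profile that includes the rise in cold replicate 2, so these values are descriptions only.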

How the data were processed

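The 6 mouse lung libraries were made with an NEBNext Ultra II kit, per the labels' protocols. The build mm10 is named in the submitters' processing notes. For the aligner, counter, annotation and strand setting, the sources used here state nothing. The deposited values are RPKM per gene, made by the authors and rounded to 0.001. Although named raw counts, they are whole multiples of a step per library once multiplied by the gene span in GENCODE M21 (82.8% to 87.2% of low values whole within 0.1), which gave depths of 32.7 to 48.7 M reads and the recovered read numbers. The span holds introns, so long genes have low RPKM. The authors' table also holds deposited log2 fold changes and deposited p-values and q-values, whose test is not stated. Of 18174 rows, 92 had no span and were left out.

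RPM (RPKM times span) was scaled per library by TMM without weights (trims of 30% on M and 5% on A values). Genes with the equivalent of 10 reads in at least 3 libraries and 15 reads in all were tested, 15237 in number, on log2(scaled RPM + 0.5) with limma 3.58.1 in R 4.3.3 (eBayes, trend and robust) and Benjamini-Hochberg adjustment over all of them. Fold changes on this scale understate the change of low genes. The script was tested on simulated data in which only a small share of genes changed. That test therefore does not cover the scaling under changes as wide as those here. Replicates of a group differed beyond sampling noise (chi-square per degree of freedom 15.7 to 87.3). Same-numbered libraries of the groups deviated together (correlations 0.115, 0.150 and 0.155), so blocking on the replicate number was an alternative, with other scalings, pseudocounts, filters, voom and each library left out. Besides the members, the text names up to 4 called genes per role list by smallest p, those called against their list's majority, up to 2 per cell marker list and the 8 most like genes. Genes named outside this rule are marked in the text as named after their values were seen. A gene that this rule names among the erythroid markers is not reported here. The members and lists were chosen with earlier results of these data known. Promoter sequences were matched by symbol for 8 of 8 members.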

Additional observations from a re-analysis of the deposited data

How the results depend on the processing

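All 8 neutrophil genes kept their direction and their call in each of the 15 alternatives, with counts over all genes and over the 107 genes of the role lists within 1.5 times those reported. With the replicate number as a block, pairing same-numbered libraries, 5349 genes were called higher and 5320 lower, all 8 members were called, and 52 role genes rose and 23 fell, so the block changed none of these counts by more than that. Under the deposited scaling the median log2 change of all genes shifted from 0.00 to 0.29, with 7034 genes called higher and 3766 lower against 5409 and 5336, so small changes are relative to the scaling. Depth limits Cxcr2, Ngp, Camp and Il1r2 at room temperature, with 21, 13, 7 and 7 reads over 3 libraries. The counting intervals given for them do not hold the spread between libraries. Of the genes named by rule from the role and cell lists none reversed its direction in any alternative, and Ceacam1, Cebpb, Clec1b and Cst3 lost their call in at least 1.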
